A study of Mus musculus with 20 samples.

Results

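The comparison of 5-HTT knockout (KO) with wildtype (WT) amygdala, averaged over control and stressed mice, set 10 KO arrays against 10 WT arrays and used all 20 arrays of the series. Each array held RNA from the left and right amygdala of 1 male C57BL/6 mouse (the methods give the substrain of the line as C57BL/6J), with 5 mice in each of 4 groups. WT con and KO con mice stayed in the home cage, and WT stress and KO stress mice spent 1 min in water of 22 °C. All mice were offspring of parents heterozygous for the disrupted transporter gene, were 7 months old, were housed singly and had been through an elevated plus maze test. The KO mice lack the transporter in every cell and throughout life, so that all cells of the dissected tissue carry the mutation. The genotype difference was taken within con and within stress, and the mean of both is called the averaged difference. A positive value means a higher log2 signal in the arrays labelled KO, and all 28767 probe sets were included. Of these probe sets 21776 are listed under 1 gene symbol, which gives 19933 different genes.

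The serotonin transporter, 5-HTT, is the product of Slc6a4. It returns released serotonin to the nerve terminal and so ends the signal at serotonin receptors. The cell bodies that make this transporter in the adult brain lie in the raphe nuclei of the brainstem, and the amygdala receives their axons. The amygdala is a set of nuclei concerned with fear and the appraisal of threat. In bulk tissue, fewer cells of a type and less RNA per cell cannot be told apart.

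The sequences shown first belong to microRNA genes with a lower signal in KO that met the study's own criterion or had groups that did not overlap, because microRNA and small nucleolar RNA genes were the gene classes with the largest share of lower values. They are mature sequences from RefSeq in GRCm38.p6, written 5′ to 3′, with the seed (bases 2 to 8) in capitals. Of 8 microRNA genes looked up 7 had a mature sequence, and the 7 sequences held 7 different seeds. The array measures the probe set of the gene and not the mature RNA.
mmu-miR-185-3p of Mir185, chr16:18327405-18327425, minus strand: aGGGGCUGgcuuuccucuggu
mmu-miR-665-3p of Mir665, chr12:109586368-109586387, plus strand: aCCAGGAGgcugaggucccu
mmu-miR-665-5p of Mir665, chr12:109586331-109586356, plus strand: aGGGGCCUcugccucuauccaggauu
mmu-miR-679-3p of Mir679, chr12:109715624-109715645, plus strand: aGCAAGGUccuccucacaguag
mmu-miR-679-5p of Mir679, chr12:109715587-109715608, plus strand: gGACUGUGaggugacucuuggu
mmu-miR-680 of Mir680-2, chrX:144297790-144297810, plus strand: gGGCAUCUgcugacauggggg
mmu-miR-690 of Mir690, chr16:28599940-28599961, minus strand: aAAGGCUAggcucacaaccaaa
The mature miR-680 is encoded by 3 listed loci, Mir680-1, Mir680-2 and Mir680-3. Mir665 and Mir679 lie in the imprinted Dlk1 to Dio3 domain of chromosome 12, which holds a large microRNA cluster.

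Slc6a4 had the clearest genotype difference. In the arrays labelled WT con the log2 signals were 5.82, 6.20, 6.51, 6.73 and 7.82, and in WT stress they were 6.30, 6.32, 6.35, 6.44 and 6.55. Those labelled KO con read 8.11, 8.14, 8.17, 8.17 and 8.20, and those labelled KO stress read 8.10, 8.27, 8.28, 8.35 and 8.38. All 10 KO arrays were above the highest WT array. KO values spanned 8.10 to 8.38, with a median of 8.19, and WT values spanned 5.82 to 7.82, with a median of 6.40. The averaged difference was 1.71 (SE 0.16), a 3.28-fold higher signal in KO, with an adjusted p of 1.15e-04 in limma. The exact permutation test gave 3.15e-05 (two-sided), the smallest p that its 63504 relabellings can give. Slc6a4 thus rose, in the arrays labelled KO, where a transcript lost with the gene would be lower. The study also listed Slc6a4 as higher in KO than in WT, in con and in stress, on these arrays. The sources used here do not say whether its probes lie inside or outside the disrupted part, so the signal checks that the arrays fall into 2 sets by their labels and not the direction. The methods assigned genotypes by PCR on DNA, independently of the arrays. WT con replicate 5 read 7.82, nearest to the KO arrays, and without it the averaged difference was 1.86.

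**Figure D1:**
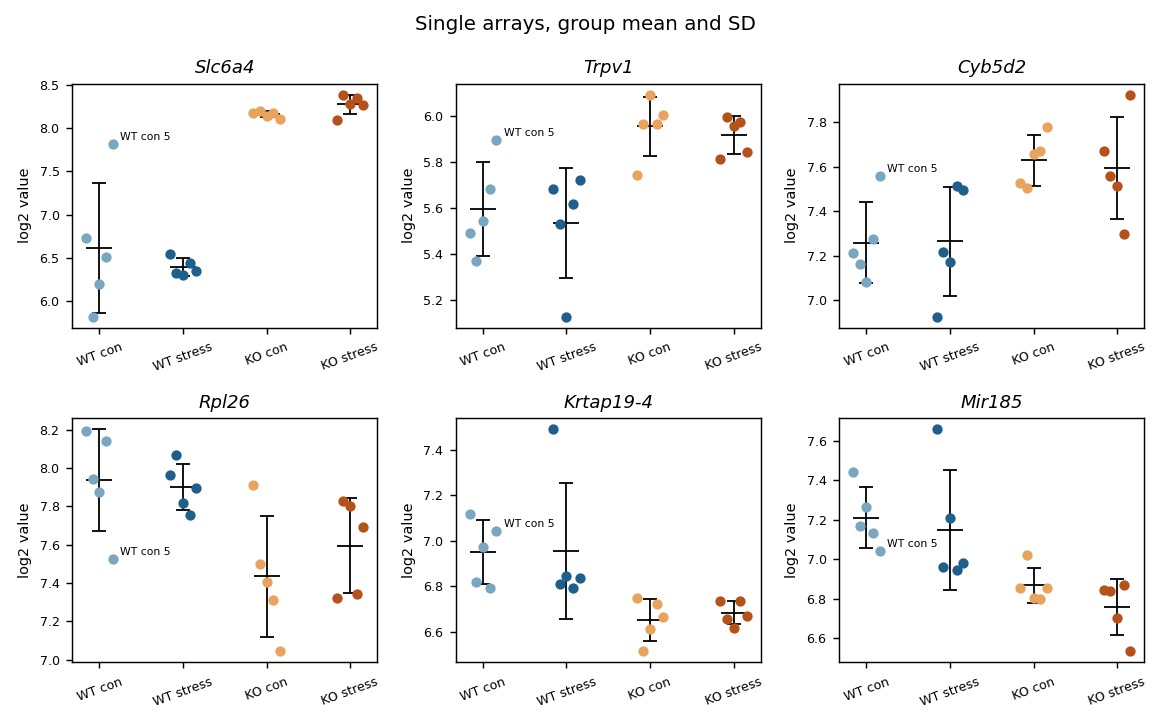
Log2 signal of 6 genes in each of the 20 arrays (points, 5 per group), with the group mean and SD. Slc6a4 and Krtap19-4 had no overlap between the 10 WT and the 10 KO arrays. WT con replicate 5 is labelled in each panel whatever its value, and it read 7.82 for Slc6a4.

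Over all probe sets, Slc6a4 was the only call at an adjusted p under 0.05 (limma), 1 of 28767 or 0.00348%. The next smallest adjusted p was 0.1154. At an unadjusted p under 0.05, 3465 probe sets were called where 1438 are expected with no difference anywhere. Of these, 1354 (4.71%) were higher and 2111 (7.34%) lower in KO. After centring the arrays on their medians the split was 1889 higher against 1521 lower, and after quantile normalization it was 1355 against 1485. The excess of lower values therefore depended on the scaling. Leaving out WT stress replicate 1 gave 2228 calls, 838 higher and 1390 lower. WT stress replicate 1 had the lowest spread of values over probe sets, with an SD of 1.637, where the other 19 arrays lay between 1.734 and 1.856, and it also correlated least with the other arrays (median r 0.961). The median averaged difference moved with signal level, from -0.07 for probe sets with a mean of 5 to 6 to 0.08 for those with a mean of 9 or more. The part of that array in the shift with level was not tested.

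The study selected genes by a change of more than 1.5-fold together with p under 0.05, without adjustment, and this criterion was met by 5 probe sets higher in KO (0.0174%) and 35 lower in KO (0.122%). Only 15 of these 40 probe sets have 1 symbol. Of the 40, 37 differed more in stress than in con, and their shared sign in both conditions is largely fixed by the choice on the average. The count moved with single arrays. It dropped to 8 when WT stress replicate 1 was left out, to 20 for KO con replicate 4 and to 21 for WT con replicate 3. It reached 73 when WT con replicate 1 was left out, and 75, 84 and 116 for replicates 2, 5 and 4 of WT stress.

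Of the named genes that met the criterion, Lct and Gpx3 had values that single arrays carried. Lct, the intestinal enzyme lactase, had an averaged difference of -0.84 (SE 0.38, exact permutation p = 0.0170), with -0.36 in con and -1.32 in stress. WT stress replicates 4 and 5 read 9.05 and 8.92, while the other 18 arrays lay between 5.32 and 6.62. Gpx3, a secreted glutathione peroxidase, had an averaged difference of 0.69 (exact permutation p = 0.0571). Its lowest WT arrays read 5.83, 6.33 and 6.86 in WT stress, and KO values ran from 7.09 to 9.01.

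Rsph4a, a component of the radial spokes of motile cilia, had an averaged difference of 0.60 (exact permutation p = 0.0383). Fam183b, a gene of ciliated cells, had one of 0.63 (SE 0.21, exact permutation p = 0.0191). The KO stress arrays read 7.41, 7.46, 7.49, 7.53 and 7.53 for Fam183b, above all WT stress arrays (5.86 to 6.95), whereas KO con (5.83 to 7.66) overlapped WT con (6.09 to 7.29). Its difference was 0.25 in con and 1.00 in stress.

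Among the lower genes, Phxr4, a repeat-containing gene without a settled role, had an averaged difference of -0.66 (SE 0.18, exact permutation p = 0.0029). WT arrays ran from 5.62 to 6.99 and KO arrays from 5.28 to 6.19, with 4 KO arrays under the lowest WT array. The RIKEN transcripts 4930447A16Rik (-0.65), 4930578G10Rik (-0.74) and 9530091C08Rik (-0.65) and Tbrg3 (-0.60) met the criterion with exact permutation p-values of 0.0033, 0.0055, 0.0314 and 0.0260. None of these genes passed the adjusted threshold.

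A complete separation of the 10 KO from the 10 WT arrays was seen for 3 probe sets, or 0.0104% of all. Beside Slc6a4 these were Krtap19-4, a keratin-associated protein of hair, and the unnamed probe set 10570711, whose averaged difference was -0.13. For Krtap19-4 the WT con arrays read 6.79, 6.82, 6.97, 7.04 and 7.12 and the WT stress arrays 6.79, 6.81, 6.83, 6.85 and 7.49. KO con arrays read 6.51, 6.61, 6.67, 6.72 and 6.75, and KO stress arrays 6.62, 6.66, 6.67, 6.74 and 6.74. The gap between the lowest WT and the highest KO array was thus small. The averaged difference was -0.28 (SE 0.08, exact permutation p = 3.15e-05), and without WT stress replicate 1 it was -0.22. That exact permutation p follows from the separation by which the gene was chosen.

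Separation within con and within stress, in the same direction, held for 6 probe sets (0.0209%). The others were Mir185, Fbxl7, a subunit of ubiquitin ligases, and Chrnd, the delta subunit of the muscle acetylcholine receptor. Mir185 read 7.04, 7.13, 7.17, 7.27 and 7.44 in WT con against 6.80, 6.80, 6.85, 6.85 and 7.02 in KO con. In stress it read 6.94, 6.96, 6.98, 7.21 and 7.66 in WT against 6.53, 6.70, 6.84, 6.84 and 6.87 in KO. Its averaged difference was -0.37 (SE 0.08, exact permutation p = 3.15e-05), and its mature sequence is the first of those above. Fbxl7 had an averaged difference of -0.40 and Chrnd one of -0.17. Krtap19-4, Mir185, Fbxl7 and Chrnd are named because of this separation, after their values were seen. Separation in both conditions fixes the exact permutation p at its smallest possible value, so for these genes it is no further evidence.

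Genes with small p-values but smaller folds, also chosen after their values were seen, included homeobox genes of the body axis and limb. Hoxd10 read 5.88 to 6.39 in WT and 5.66 to 5.92 in KO, an averaged difference of -0.32, and Lbx1 had one of -0.29. Tnfaip8l2, a regulator of immune signalling, had a difference of -0.37, Fem1al one of -0.51 and Lce1l, a cornified envelope gene, one of -0.29. Gramd4 (0.22), the flavin monooxygenase Fmo1 (0.28) and the neural proteoglycan Cspg5 (0.18) were higher in KO. The probe sets 10519321 and 10466923, each listed under Rpl26 and its pseudogene Gm15772, were higher in KO by 0.51 (SE 0.08) and 0.52 (SE 0.09). For both, 9 of 10 KO arrays lay above the highest WT array, and both had the adjusted p of 0.1154 given above.

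Around Slc6a4 on chromosome 11 a larger share of probe sets was called than on other chromosomes, in both directions and with small differences, which is given as a description without a test. At an unadjusted p under 0.01, where 575 of all probe sets (2.0%) were called, 11 of the 214 probe sets within 5 Mb of Slc6a4 were called, which is 5.14%, with Slc6a4 itself left out. Between 5 and 20 Mb the share was 2.72% (14 of 515), farther on chromosome 11 it was 2.88% (27 of 939), and on other chromosomes it was 1.55% (311 of 20017). Among probe sets not placed on a chromosome it was 2.98% (211 of 7081). The other 19 chromosomes ranged from 0.690% to 2.21% each. Of the 11 neighbours 7 were higher and 4 lower in KO. At an unadjusted p under 0.05 the share within 5 Mb was 14.5% and that on other chromosomes 10.4%, so the excess was in the smaller p-values.

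Trpv1, the cation channel opened by heat and capsaicin, lies at -3.74 Mb, where negative distances point to the start of the chromosome. It read 5.37, 5.49, 5.54, 5.68 and 5.90 in WT con and 5.13, 5.53, 5.62, 5.68 and 5.72 in WT stress. In KO con it read 5.74, 5.96, 5.96, 6.00 and 6.09, and in KO stress 5.81, 5.84, 5.95, 5.97 and 6.00. Stress groups did not overlap, and in con only WT con replicate 5 reached the KO range. The averaged difference was 0.37 (SE 0.08, exact permutation p = 1.58e-04), with 0.36 in con and 0.38 in stress.

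Cyb5d2, a heme-binding protein at -4.20 Mb, had an averaged difference of 0.35 (SE 0.09, exact permutation p = 0.0011). WT arrays ran from 6.93 to 7.56 and KO arrays from 7.30 to 7.92. Mybbp1a, a nucleolar protein that binds Myb, lies at -4.55 Mb and read 7.73 to 8.04 in WT against 7.92 to 8.25 in KO, a difference of 0.20 (SE 0.05). The citrate transporter Slc13a5 at -4.73 Mb was higher by 0.29, the mitochondrial import protein Timm22 at -0.58 Mb by 0.23, the splicing regulator Nsrp1 at 0.012 Mb by 0.30 and Pigs, which attaches proteins to membrane anchors, at 1.30 Mb by 0.23. Lower in KO were Smtnl2 at -4.59 Mb with a difference of -0.23, Ctns, the lysosomal cystine transporter, at -3.80 Mb with -0.26, Mir193a at 2.68 Mb with -0.23 and Spaca3, a sperm protein, at 3.83 Mb with -0.22. Omg, a myelin glycoprotein at 2.47 Mb, had a difference of 0.35 (exact permutation p = 0.0383).

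Farther out, Rpl26, a protein of the large ribosomal subunit at -8.09 Mb, was among the lowest in KO. WT con arrays read 7.53, 7.88, 7.95, 8.14 and 8.20, and WT stress arrays 7.76, 7.82, 7.90, 7.96 and 8.07. KO con arrays read 7.04, 7.31, 7.41, 7.50 and 7.91, and KO stress arrays 7.32, 7.34, 7.69, 7.80 and 7.83. The averaged difference was -0.40 (SE 0.11, exact permutation p = 0.0022), with -0.50 in con and -0.31 in stress. The annotation gives Rpl26 together with its pseudogene Gm15772 for 3 further probe sets, 10466923, 10519321 and 10511629. These ran the other way and were higher in KO by 0.52, 0.51 and 0.33. The study's entry of Rpl26 for control mice was 10466923, chosen on these arrays. Near-identical copies can share probes, so the direction for Rpl26 is uncertain. Of the 3 probe sets of Rangrf, 2 were lower, by -0.28 and -0.29, and the other differed by 0.00. Fam183b, described above, lies at -18.2 Mb.

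WT con replicate 5, the WT array with the highest Slc6a4 signal, was nearer to the KO mean than to the WT mean at 9 of the 25 probe sets called within 20 Mb, and the other 9 WT arrays were so at 0 to 11. The share within 5 Mb lay between 2.80% and 3.27% when any of 10 arrays was left out, namely replicates 3 and 5 of WT con, 1 of WT stress, 2, 3 and 4 of KO con and 1, 2, 3 and 5 of KO stress. In all 33 settings it was above the share on other chromosomes, by 1.94 to 3.86 times.

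**Figure D2:**
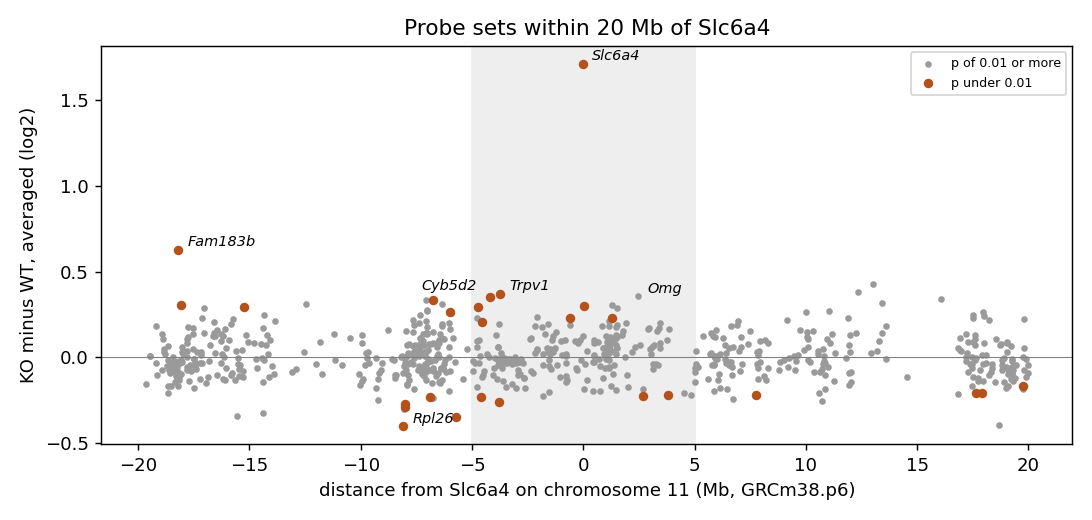
Averaged difference (KO minus WT, log2) of each probe set within 20 Mb of Slc6a4 against its distance from that gene in Mb on GRCm38.p6, with 5 Mb on either side shaded. Coloured points have an unadjusted p under 0.01, 11 of 214 within the shaded window beside Slc6a4 itself, with both directions among them.

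Genes of a list can move together within an array, so that counts of genes are not counts of independent observations. Most microRNA genes were lower in KO on average, and the arrays of both genotypes overlapped, as given below. Of 296 measured, 279 had a lower and 16 a higher averaged signal, and 95 were lower at an unadjusted p under 0.05 with none higher. Over all genes, with 1 probe set each, 5.56% were lower and 5.19% higher at that p, and their median difference was 0.00 against -0.16 for microRNA genes. Lower values in both con and stress were seen for 246 of the 296, and the list's median was -0.14 in con and -0.19 in stress. Small nucleolar RNAs, which guide chemical modification of ribosomal RNA, were lower in 49 of 52 cases, with 13 at an unadjusted p under 0.05 and a median of -0.20.

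Mir690 had the largest microRNA difference, -0.85 (SE 0.31, exact permutation p = 0.0159), with WT arrays from 5.89 to 8.59 and KO arrays from 5.84 to 6.85. Mir680-2 read 7.21 to 9.996 in WT and 7.12 to 8.09 in KO, a difference of -0.70 (exact permutation p = 0.0097). Its sister loci Mir680-1 and Mir680-3, which encode the same mature sequence, had differences of -0.56 and -0.40. Mir679 and Mir665, neighbours in the chromosome 12 cluster, had differences of -0.64 (exact permutation p = 0.0310) and -0.62 (exact permutation p = 0.0353). Mir297b, whose sequence is not shown, had -0.59 (exact permutation p = 0.0120). In each of these genes the KO arrays spanned a narrower range than the WT arrays, and their median lay under the WT median.

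The microRNA genes of chromosome 12 were lower in 47 of 47 cases, with a median of -0.38 and 20 at an unadjusted p under 0.05. On the other chromosomes 232 of 249 were lower, with a median of -0.14 and 75 at that p. Within each of 4 bands of mean signal the microRNA median was under that of all genes. For means of 5 to 6 the medians were -0.15 for microRNA genes and -0.06 for all genes, for 6 to 7 they were -0.26 and -0.03, and for 7 to 10 they were -0.34 and 0.07. For means of 4 to 5 they were -0.04 and -0.03.

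Among the small nucleolar RNAs, Snord15b had a difference of -0.49, Snord57 one of -0.43, Snora30 one of -0.41 and Snord73b one of -0.40. Snord15b ran from 7.77 to 9.93 in WT and from 7.43 to 8.81 in KO. Olfactory receptor genes, mostly at low signal in brain, were lower in 912 of 1016 cases, 102 of them at an unadjusted p under 0.05, with a median of only -0.05. That list depended on the scaling, with 36 lower and 6 higher after quantile normalization and a median of -0.01.

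The spread of the WT arrays in these small RNAs was uneven. The score of the microRNA list, which averages its genes after each was centred over the arrays, was 0.59 in WT stress replicate 1, 0.31 in WT stress replicate 3 and -0.20 to 0.20 in the other 8 WT arrays. KO arrays lay between -0.17 and -0.01. WT con replicates 1 and 4 (-0.01 and -0.07) and WT stress replicates 4 and 5 (-0.20 and -0.14) lay in that range or under it. Without WT stress replicate 1, 60 microRNA genes were lower at an unadjusted p under 0.05, and without WT stress replicate 4, which had the lowest score, 147 were. For small nucleolar RNAs the count was 21 without WT stress replicate 4. After quantile normalization 74 microRNA genes were lower, with a median of -0.13. RNA quality was not recorded per array in the sources used here, and its part in the small RNA result was not tested.

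**Figure D3:**
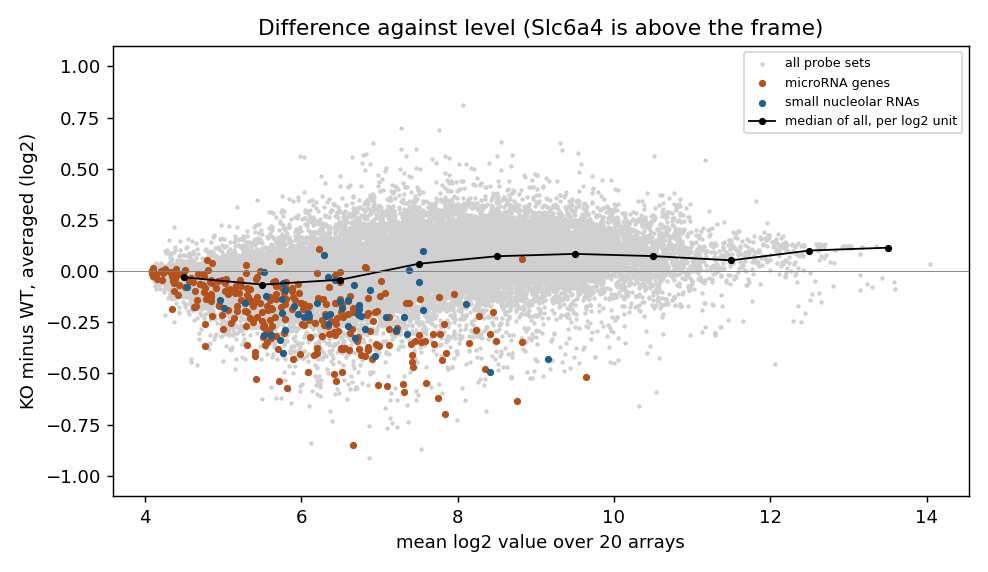
Averaged difference (KO minus WT, log2) of each probe set against its mean log2 value over 20 arrays, with microRNA genes and small nucleolar RNAs coloured and the median of all probe sets per log2 unit as a line. Most microRNA genes sit under the line from a mean of 5 upwards, most clearly between 7 and 10, where their median is -0.34 against 0.07 for all genes.

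Genes of the serotonin system other than Slc6a4 differed little on average over con and stress. Of 17 genes of serotonin synthesis, transport and breakdown, Slc6a4 was the only one higher at an unadjusted p under 0.05, and Aanat (-0.15) and Tph1 (-0.10), which belong to melatonin synthesis and to serotonin synthesis outside the brain, were lower. Tph2, the rate-limiting enzyme of brain serotonin synthesis, had a difference of 0.05. Ddc, which forms serotonin and dopamine from their precursors, had 0.29, with WT arrays from 6.53 to 7.63 and KO arrays from 6.91 to 8.10. Monoamine oxidases, which degrade serotonin, differed by 0.29 (Maob) and 0.18 (Maoa), and the vesicular transporter Slc18a2 by 0.24. None of the last 4 had an unadjusted p under 0.05 for the averaged difference, and the list's median was 0.05. The calls were 17.6% of the list, against 10.8% of all genes in either direction. For Slc18a2 the study listed a higher signal in stressed KO than in stressed WT mice, on these arrays and without adjustment.

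Of 14 serotonin receptor genes 8 were higher and 6 lower in KO, and 1 was called at an unadjusted p under 0.05. That is 7.14% of the list, where 10.8% of all genes were called in either direction. Htr5a, an inhibitory receptor coupled to Gi, read 6.85 to 7.21 in WT and 7.03 to 7.33 in KO, a difference of 0.15 (exact permutation p = 0.0074). Htr1a, the inhibitory autoreceptor and postsynaptic receptor, differed more, by 0.32, but its arrays ran from 6.68 to 8.4 in WT and from 7.20 to 8.69 in KO (exact permutation p = 0.206). Htr7 differed by 0.23 and Htr1d by 0.21, and Htr2c (0.03) and Htr2a (-0.01) had values close to 0. The median of the list was 0.04.

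Other transmitter systems had few calls. In the dopamine and adrenergic list only 12 of 20 genes were measured under their symbol, with most adrenergic receptors not analysed here. None of the 12 was called at an unadjusted p under 0.05, with Drd2 at 0.29 and Drd1 at 0.17. Ionotropic glutamate receptor genes were lower in 10 of 16 cases, with a median of -0.10. Gria2 (-0.19), the subunit that sets calcium permeability of AMPA receptors, and the kainate subunit Grik4 (-0.16) were lower and Grid1 (0.13) higher at an unadjusted p under 0.05. The calls were 18.8% of this list and 6.67% of the GABA-A list that follows, against 10.8% of all genes in either direction. Among 15 GABA-A receptor subunits Gabra3 was higher at that p, by 0.41, and Gabrq and Gabre had larger differences, 0.56 and 0.52, that were not called.

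Stress peptides and corticosteroid signalling had 23 of 33 genes higher and a median of 0.05. At an unadjusted p under 0.05, 1 gene was called (3.03%, against 10.8% of all genes). That gene was the urocortin Ucn2, with a difference of -0.19. Crh, the releasing hormone of the stress axis, differed by 0.22, Adcyap1, which encodes the peptide PACAP, by 0.42 and the neurokinin receptor Tacr3 by 0.39. The glucocorticoid receptor Nr3c1 differed by 0.08 and the stress-induced chaperone Fkbp5 by 0.03. Immediate early genes, which neurons induce within minutes of activity, had 12 of 25 higher and a median of -0.01, with Fos at 0.01, Arc at 0.04 and Egr1 at -0.01. None of the 25 was called.

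Microglial genes were the cell type list with the most calls in 1 direction. Of 24 measured, 21 were higher in KO, 5 of them (20.8%) at an unadjusted p under 0.05 where 5.19% of all genes were higher, and the median was 0.11, with 0.19 in con and 0.11 in stress. The 5.19% pools all signal levels. For means of 7 to 8, 12.3% of all probe sets were called in either direction, and for 7 to 10 only 2.04% of genes were called lower. The pooled share is thus low for genes at such means, and the part of the shift with level was not tested. C1qb, a chain of complement C1q, read 7.74, 7.88, 7.89, 8.06 and 8.12 in WT con and 7.45, 8.08, 8.12, 8.13 and 8.29 in WT stress. The KO con arrays read 8.13, 8.16, 8.16, 8.26 and 8.54, and the KO stress arrays 8.21, 8.23, 8.24, 8.26 and 8.28. Groups did not overlap in con, and in stress only WT stress replicate 2 reached the KO values. The averaged difference was 0.27 (exact permutation p = 5.35e-04). The lysosomal protein Laptm5 differed by 0.29, the secreted Olfml3 by 0.25, the Fc receptor chain Fcer1g by 0.23 and Selplg, the ligand of P-selectin, by 0.18. Cd68, a lysosomal marker of phagocytes, differed by 0.25 without a call.

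The microglial calls were few and moved with single arrays. The count was 8 without WT stress replicate 2 and 1 without WT con replicate 5. Leaving out replicate 1 or 5 of WT stress, 1 of KO con, or 2, 4 or 5 of KO stress gave 2, and leaving out replicate 2 of WT con or 2 or 4 of KO con gave 3. After quantile normalization 2 were called. The scores of the list lay between -0.19 and -0.00 in WT con and between -0.02 and 0.29 in KO con, where KO con replicate 1 was highest.

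Other glial and vascular lists leaned higher with few calls. At an unadjusted p under 0.05, 10.8% of all genes were called in either direction. The share was 4.55% for astrocytes, 8.70% for the oligodendrocyte lineage and 4% for endothelial and mural genes. Astrocyte genes were higher in 19 of 22 cases, with a median of 0.17, and the gap junction gene Gjb6 (0.30) was called at an unadjusted p under 0.05. In the oligodendrocyte lineage 19 of 23 genes were higher, with a median of 0.06, and the progenitor transcription factor Olig2 (0.23) and Cspg5 (0.18) were called. Endothelial and mural genes were higher in 19 of 25 cases, with a median of 0.05 and Itm2a (0.26) called. WT stress replicate 1 had the lowest score of all arrays for astrocyte (-0.72) and oligodendrocyte genes (-0.59). The other WT stress arrays had astrocyte scores of -0.10 to 0.12, and the KO stress arrays of -0.03 to 0.21. The glial and vascular lists share the shift with signal level described above, and its part in their medians was not tested.

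Motile cilia and ependyma genes were higher in 33 of 35 cases, with a median of 0.16. At an unadjusted p under 0.05 4 were called (11.4%, against 5.19% of all genes in that direction), Fam183b, Rsph4a, Mns1 (0.33) and Spag17 (0.34). The 5.19% pools all signal levels, and the part of the shift with level in these calls was not tested. The median was -0.06 in con and 0.50 in stress, and 9 of 35 genes were higher in con against 35 of 35 in stress. Choroid plexus genes showed no call among 28, with a median of -0.25 in con and 0.28 in stress. Choroid plexus scores ran from -0.76 to 2.31 in WT stress and from -0.38 to 1.62 in KO stress, and from -0.74 to -0.09 in the con arrays. Meningeal and fibroblast genes were higher in 24 of 32 cases, also without a call, with medians of -0.15 in con and 0.47 in stress. The averaged difference of these 3 lists thus joined con and stress values of opposite sign, and the amount of tissue lining the ventricles and brain surface in each dissection was not measured.

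Neuronal lists had 2 calls in all over the lists of pallial, GABAergic, striatal, hypothalamic and thalamic neurons. The share was 3.70% in the pallial and 3.23% in the hypothalamic list, against 10.8% of all genes in either direction. Pallial excitatory genes were higher in 14 and lower in 13 of 27 cases, with a median of 0.00 from 0.17 in con (21 of 27 higher) and -0.18 in stress (8 of 27 higher), and the cortical transcription factor Cux1 (0.20) was called. Neurod6 (-0.62) and Slc17a7 (-0.32), both of glutamatergic forebrain neurons, were lower without a call. GABAergic interneuron genes were higher in 22 of 25 cases (median 0.10, with Calb2 at 0.48), striatal and central amygdala genes in 26 of 30 (median 0.16, with Penk at 0.54), and thalamic genes in 19 of 19 (median 0.15), all without a call. Hypothalamic and medial amygdala genes were higher in 23 of 31 cases, with a median of 0.21 and the neuroglobin gene Ngb (0.44) called. The median of that list was 0.00 in con (16 of 31 higher) and 0.42 in stress (26 of 31 higher). The striatal and central amygdala list had 0.30 in con (28 of 30 higher) and -0.01 in stress (15 of 30 higher).

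Among the remaining lists, 17 of 24 imprinted genes were higher, with Sgce (0.25) and Dio3 (0.16) higher and Ascl2 (-0.13) lower at an unadjusted p under 0.05. In the Dlk1 to Dio3 domain the protein gene Dlk1 differed by 0.38 and the noncoding Meg3 and Rian by -0.20 and -0.23, beside the lower microRNA genes of that domain. Axon guidance genes were higher in 26 of 39 cases, with Slit2 (0.30) called. MHC class II genes were divided 6 against 6, with the class II regulator Ciita (-0.15) lower at that p. Red blood cell genes numbered 5, with Bpgm (0.22) called (20%). The calls were 12.5% of the imprinted, 2.56% of the axon guidance and 8.33% of the MHC class II list. Over all genes the share in either direction was 10.8%.

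Cytoplasmic ribosomal protein genes were higher in 37 of 61 cases, with 5 called higher and 3, among them Rpl26 by its own probe set, called lower. Over all genes 5.19% were called higher and 5.56% lower. These shares pool all signal levels, and an excess of higher calls at matched signal, here or in the respiratory chain, was not tested. The 5 were reduced to 2 without WT con replicate 5, WT stress replicate 1 or KO con replicate 2, to 3 without KO stress replicate 2, and raised to 9 without WT stress replicate 2 or 8 without KO stress replicate 4. Respiratory chain genes were higher in 52 of 74 cases, with 5 called higher and 1 lower, and Uqcrc1 and Atp5d both differed by 0.29. Without KO con replicate 3 or KO stress replicate 5 the 5 became 3, and without KO stress replicate 4 they became 8.

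**Figure D4:**
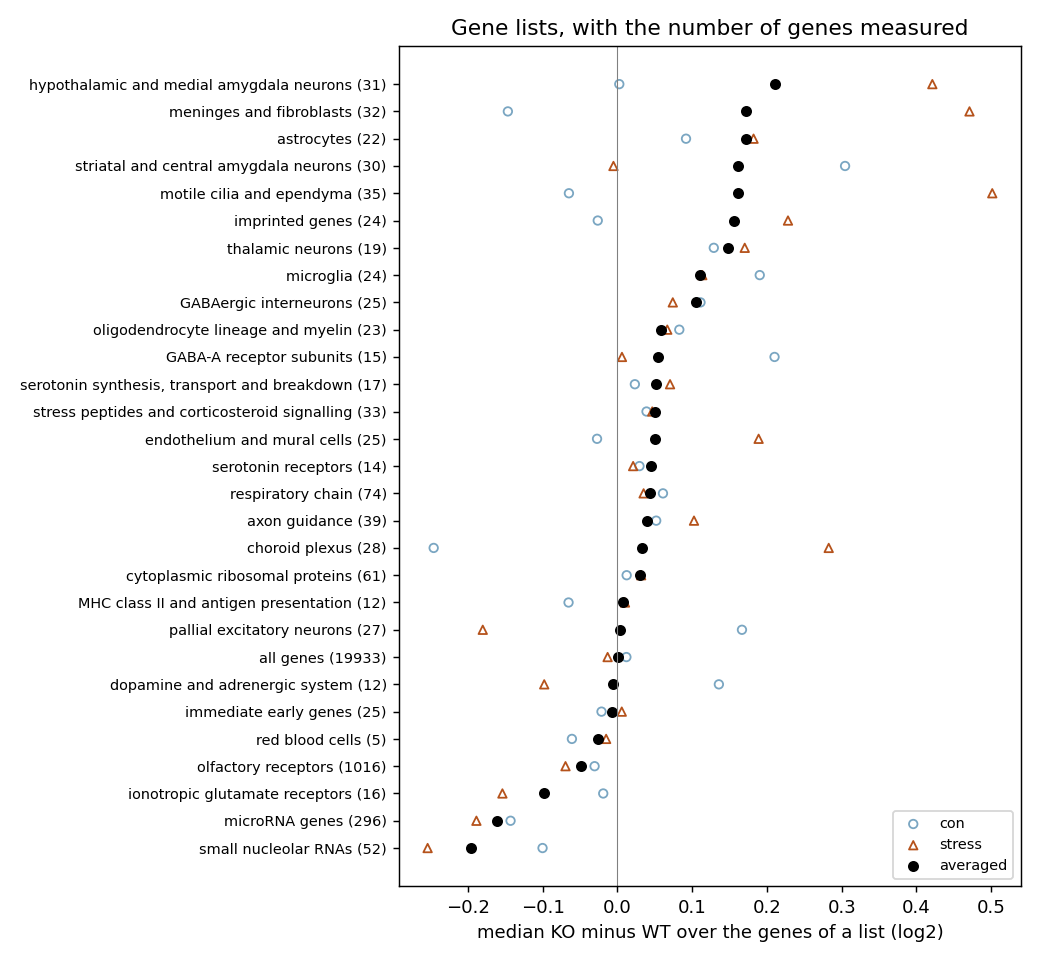
Median KO minus WT difference (log2) over the genes of each list, with the number of genes in parentheses, for con (open circles), stress (triangles) and their average (filled circles). MicroRNA genes and small nucleolar RNAs lie lowest on average, and con and stress medians have opposite signs in several lists, among them the ciliary, meningeal, choroid plexus, endothelial, pallial, striatal, imprinted and dopamine lists.

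Con and stress were compared last, since an average can hide conditions that differ. In con no probe set passed the adjusted threshold in limma (0.0%), with 1026 called at an unadjusted p under 0.05 and a smallest adjusted p of 0.0804. In stress 1 probe set passed (0.00348%), Slc6a4, with 2670 called at an unadjusted p under 0.05. Slc6a4 differed by 1.54 in con and by 1.88 in stress. No probe set passed for the interaction, the difference between both genotype differences (0.0%), with 724 called at an unadjusted p under 0.05 and a smallest adjusted p of 1.0. Over all probe sets 19286 (67.0%) had the same sign in con and in stress. Con and stress share no arrays, but WT con and WT stress arrays of the same number deviated together (correlations of 0.16 to 0.42 in 5 of 5 pairs), and the part of this in the shared signs was not tested.

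Genes that the study listed for the control mice on these arrays show what the average leaves out. Tac2, which encodes neurokinin B, differed by 1.08 in con and 0.32 in stress, and the average was 0.70 (SE 0.45, exact permutation p = 0.152). Its WT con arrays read 6.13, 6.15, 6.17, 6.82 and 7.53 and its KO con arrays 6.55, 7.12, 7.72, 8.13 and 8.69, while WT stress ran from 5.37 to 8.67. Unc13c, a vesicle priming protein, had 7 probe sets with averages of 0.37 to 0.63, from 0.81 to 1.04 in con and from -0.07 to 0.22 in stress. Kcnj13, a potassium channel of the choroid plexus, differed by -1.04 in con and 1.22 in stress, with an average of 0.09, and WT stress replicate 4 read 11.57. Rtl1, an imprinted gene of the Dlk1 to Dio3 domain, had an average of -0.20.

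Of the genes the study took to real-time PCR, Robo2, an axon guidance receptor, averaged -0.00 from 0.55 in con and -0.56 in stress. Cdh9, a cadherin of synapses, averaged -0.23 from 0.42 in con and -0.88 in stress. Ace, the angiotensin-converting enzyme, averaged 0.15 from -0.05 in con and 0.35 in stress, and the annexin Anxa1 averaged 0.43. None of the 4 was called at an unadjusted p under 0.05 for the average. The study's claims for them lie within a condition or a genotype, which the average does not measure. By PCR it reported Cdh9 as lower and Anxa1 as higher in stressed KO than in stressed WT mice. Its PCR also gave Ace as higher in stressed than in control KO mice, and a rise of Robo2 in stressed WT mice that did not reach significance. The fifth PCR gene, Adra2a, is not analysed here, because the annotation used here lists no probe set under that symbol alone. The study reported it as higher in stressed KO than in stressed WT mice, on these arrays and by PCR.

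**Figure D5:**
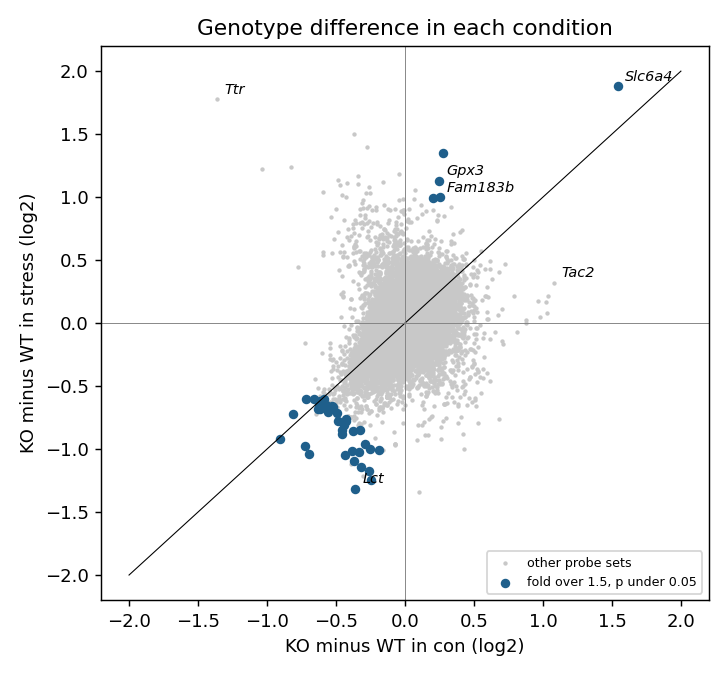
Genotype difference (KO minus WT, log2) in stress against that in con for all 28767 probe sets, with the line of equal differences. The 40 probe sets that met the study's criterion are coloured, 37 of them farther from 0 in stress, and Slc6a4 stands alone at 1.54 and 1.88.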

How the data were processed

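The authors hybridized amygdala RNA of 20 mice to Affymetrix Mouse Gene 1.0 ST arrays, used the ExonRMA method of ArrayAssist and a variance stabilization, and deposited log2 values for 28767 probe sets. These log2 values were used as deposited, in 4 groups of 5 arrays taken from the labels. Each array is 1 mouse, and the number of arrays limits the precision. limma 3.58.1 in R 4.3.3 fitted 4 group means (16 residual and 2.1 prior degrees of freedom), and the contrast averaged the KO minus WT differences of con and stress. The Benjamini-Hochberg adjustment ran over the whole table, and 0.05 was the limit for a call. The fit was tested on simulated data.

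For single genes, genotype labels were permuted within con and within stress (two-sided exact test). Symbols come from the platform's annotation, and positions from RefSeq genes of GRCm38.p6. In lists, the probe set with the highest mean stands for a gene. The members and lists were chosen with earlier results of these data known. Genes named by rule were Slc6a4, those past the adjusted threshold or, up to 30, the study's criterion, genes the study listed for control mice or took to PCR, and, per list, at most the 4 largest differences. Others are marked as chosen after their values were seen, or are list members called at an unadjusted p under 0.05 or known for their role. Alternatives covered the scaling, filters, the eBayes settings, array weights, covariates, an unpaired t-test with condition ignored, blocks of the replicate number and each array left out.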

Additional observations from a re-analysis of the deposited data

Results flagged for a closer look

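Of 292 groups of 5 arrays tested, over the genes followed by name and the list scores, 22 held 1 array far from the other 4, where chance gives about 1 in 20. WT stress replicate 1 stood above its group for Krtap19-4 (7.488, the others 6.79 to 6.85), Chrnd (5.577) and the olfactory receptor score (0.2603), and under it for the scores of astrocytes (-0.7203) and axon guidance (-0.2813). WT con replicate 1 stood above its group for Lct (6.619) and Chrnd (5.587) and apart from it in the scores of serotonin receptors (0.06667) and of the dopamine and adrenergic system (0.3847). KO con replicate 1 stood apart for Gpx3 (7.095, the others 8.0 to 8.34) and for the scores of microglia (0.286), imprinted genes (-0.3031) and red blood cells (-0.0237).

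KO stress replicate 5 was the lowest of its group for Mir679 (8.075), Fbxl7 (5.332) and the score of striatal and central amygdala neurons (-0.5342). WT stress replicate 4 read 9.716 for Ace, where the others read 6.81 to 7.62, and WT con replicate 4 read 6.713 for Kcnj13. In KO con, replicate 2 was the highest for Mir185 (7.022) and replicate 3 stood apart in the axon guidance score (0.08308). The meningeal score of WT con replicate 3 was 0.9591, and the thalamic score of WT con replicate 2 was 1.173. Scores are mean log2 differences from the average over all 20 arrays.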

How the results depend on the processing

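The averaged difference of Slc6a4 stayed between 1.61 and 1.86 in every setting run, and 0 interaction calls were made in any of them. Probe sets at an adjusted p under 0.05 in the averaged comparison numbered 5 with array quality weights (Slc6a4, 10466923, 10519321, Hoxd10 and Lce1l) and 1 to 3 with single arrays left out, the 3 without WT stress replicate 4. In con they numbered 1 with a mean of at least 5, 1 with trend and robust settings, 3 with array weights and 0 to 1 with single arrays left out (1, Slc6a4, without WT con replicate 5). In stress 0 passed with choroid plexus and pallial scores as covariates. The study's criterion was met by 15 probe sets with 1 symbol only, 17 with array weights and 19 without both WT arrays numbered 1. An unpaired t-test of all KO against all WT arrays, with condition ignored, gave 33 (1 after Benjamini-Hochberg adjustment). The study's own genotype t-tests were run within each condition. Leaving out single arrays gave 8 to 116. At an unadjusted p under 0.05, leaving out arrays gave 2228 to 4805 calls. The split of higher against lower was 940 against 2220 with array weights and 666 against 1688 without both WT arrays numbered 1. With single arrays left out, 2.80% to 6.54% were called at an unadjusted p under 0.01 within 5 Mb of Slc6a4, and 0.954% to 2.98% on other chromosomes.

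Of the same-numbered WT and KO arrays, 3 of 5 pairs in con and 2 of 5 in stress were counted as deviating together. Their correlations ran from 0.06 to 0.33 in con and from -0.05 to 0.51 in stress. These counts cannot settle whether arrays of one number share a batch across genotypes, which was not tested. With the replicate block 3 probe sets passed the adjusted threshold (Slc6a4, Suox and an unnamed probe set), 4563 had an unadjusted p under 0.05 (2165 higher, 2398 lower), and 3.37% were called on other chromosomes. WT con and WT stress arrays deviated together in 5 of 5 pairs, and a random replicate block of the WT arrays, chosen after seeing the data, gave 2.80% within 5 Mb and 1.02% on other chromosomes. The cause of these shifts was not tested. For lists and for single genes other than Slc6a4, 10460 values were recomputed. None of these genes passed the adjusted threshold in the main fit, so no call could be lost. In an alternative only, 6 values passed it. The other 10454 were genes still without a call, or list medians that moved by less than the spread of their scores within groups. List counts at an unadjusted p under 0.05 moved more, as given above. Values under 5 on the log2 scale lie near the floor of the arrays, where differences are compressed.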
